A study of Mus musculus with 2 samples.

Results

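The genes described here are 10 genes of the Notch pathway: the receptor genes Notch1, Notch2 and Notch3, the nuclear partners Rbpj and Maml1, the target genes Hey1, Hes1, Dtx1 and Nrarp, and Kit, which marks early thymic precursors. They are a named list, matched by gene ID to 10 of the 24532 gene IDs in the tables. The list was chosen by name with TPM values of the same 2 libraries known, the low level of Hey1 among them, so all values are given as a description. RNA was measured by RNA-seq in CD69-positive double-positive (DP) thymocytes, precursors with both CD4 and CD8 on their surface whose CD69 marks recent signalling through the T cell receptor. There was 1 library labelled KO, from C57BL/6 mice aged 6 weeks with floxed Nsrp1 alleles and CD4-Cre, and 1 library labelled wild type (WT), from mice of the same strain and age with the floxed alleles and no Cre. The product of Nsrp1, NSrp70, is a protein of nuclear speckles that takes part in splicing, and CD4-Cre acts from the DP stage, so earlier precursors still carry the gene. With 1 library per genotype no difference has a replicate check and no test was made.

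Notch receptors are surface proteins that are cut when they bind a ligand on a neighbouring cell. The freed intracellular domain enters the nucleus, where it joins the DNA-binding protein RBPJ and a Mastermind coactivator on the promoters and enhancers of target genes. In the thymus this signal commits precursors to the T lineage and carries them through the first checkpoint of T cell receptor assembly, and it is known to be low in DP cells.

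The depth over annotated exons was 5076 megabases in the KO library and 4199 megabases in the WT library. Levels are in TPM, a unit that corrects for transcript length and for the library total. Each level has a 95% exact Poisson interval from the estimated read pairs, and each ratio has a 95% exact binomial (Clopper-Pearson) interval. These intervals cover counting error only. The targeted gene, Nsrp1, had 29.6 TPM (27.9 to 31.5) in the KO library, against 29.7 TPM (27.7 to 31.9) in the WT library. Its RNA level thus gives no support to the KO label. The floxed exon is not named in the labels, and loss of a single exon need not show in a gene-level value. "The KO library" and "the WT library" stand throughout for the libraries labelled so. The defining genes of the sorted cells were high, with Cd4 at 663 and Cd8a at 1151 TPM in the KO library, and at 725 and 1138 TPM in the WT library. Xist, transcribed in female cells, was at 76.3 TPM in the KO library and 201.8 TPM in the WT library, and the Y-linked Ddx3y at 71.2 TPM in the KO library and 31.1 TPM in the WT library, so an effect of sex cannot be told apart from one of genotype.

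In the library labelled KO, Hey1 and Notch3 were lower by more than 2-fold, and none of the 10 genes was higher by that much. A gene was called where the log2 ratio of (TPM + 1), KO over WT, was at least 1 in size, a scale on which low genes show less than their full change. Of the 10 genes, 9 passed the filter of at least 1 TPM in at least 1 library, and Hes1 did not. Hey1 passed it through the WT library alone. Of the 12029 genes that passed, 2.03% were called in either direction, 1.37% lower in KO and 0.657% higher. At 1.5-fold, Kit was lower as well, so 3 of the 9 were lower and none was higher, where 7.02% of all tested genes passed that size in either direction, 4.43% lower and 2.59% higher. The called genes were 165 lower and 79 higher, or 50 lower and 51 higher with the authors' FPKM in place of TPM. The FPKM were smaller numbers than the TPM and 1 was added to them too, so low genes show still less of their change. The scale between the libraries shifted as well, with a median log2 fold change over all tested genes of 0.02 with FPKM. The median log2 fold change of the 9 genes was -0.43, with 8 below zero, against a median of -0.07 over all tested genes, of which 61.5% were below zero. The interval of the ratio lay under 1 for 8 of the 10 genes and included 1 for Hes1 and Nrarp. No share over all tested genes is given for this count, so it does not set these genes apart. It also depends on the unit, since Rbpj, 1 of the 8, had an FPKM of 16.27 in both libraries.

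**Figure D1:**
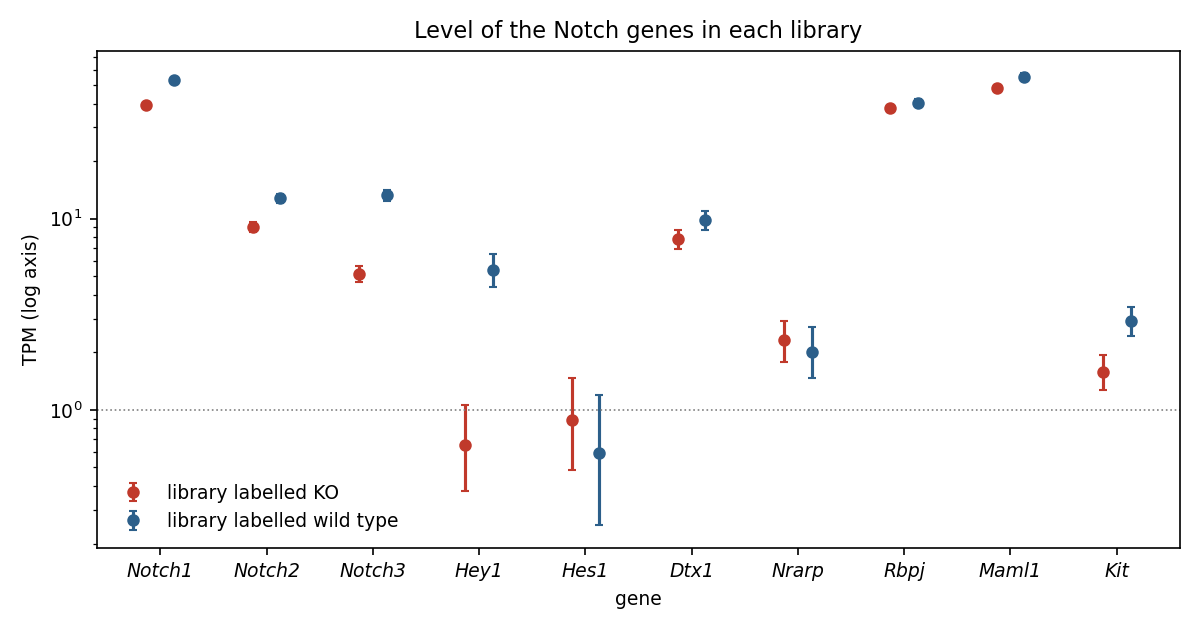
Level of each of the 10 Notch genes in TPM (log axis) in the library labelled KO (red, left) and the library labelled wild type (blue, right), with 95% Poisson intervals from estimated read pairs; the dotted line is the filter of 1 TPM. The intervals of Hey1, Notch3, Notch1, Notch2, Maml1 and Kit lie apart, with KO the lower, while those of Hes1, Nrarp and Rbpj overlap and those of Dtx1 nearly meet.

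The order of levels differed little between the libraries except for Notch3 and Hey1. In the KO library it ran from Maml1 (48.0 TPM) through Notch1 and Rbpj, Notch2, Dtx1, Notch3, Nrarp, Kit and Hes1 to Hey1 (0.656 TPM). In the WT library Maml1 (55.4 TPM) was followed by Notch1, Rbpj, Notch3, Notch2, Dtx1, Hey1, Kit, Nrarp and Hes1 (0.597 TPM). The intervals of neighbours overlapped for Notch1 and Rbpj, for Notch2 and Dtx1, and for each neighbouring pair from Nrarp to Hey1 in the KO library. In the WT library they overlapped for Maml1 and Notch1, Notch3 and Notch2, and Kit and Nrarp.

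Among the receptors, Notch1 had the highest level and Notch3 the largest difference. Notch1 (gene ID 18128, on the minus strand of chromosome 2 at 26457902 to 26503822, mm10), the receptor that T lineage commitment requires, stood at 39.1 TPM (37.9 to 40.3) in the KO library and 53.1 TPM (51.5 to 54.7) in the WT library. Its ratio, KO over WT, was 0.737 (0.706 to 0.769). Notch2 (gene ID 18129, chromosome 3, 98013538 to 98150367, plus strand), known for its role in B cells and myeloid cells, stood at 9.06 TPM (8.52 to 9.62) in the KO library and 12.8 TPM (12.03 to 13.5) in the WT library, a ratio of 0.710 (0.653 to 0.773). Both were within 2-fold.

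Notch3 (gene ID 18131, chromosome 17, 32120893 to 32166852, minus strand), a receptor whose RNA is known to rise with Notch signalling and the pre-T cell receptor in immature thymocytes, stood at 5.13 TPM (4.67 to 5.62) in the KO library and 13.3 TPM (12.4 to 14.2) in the WT library. It was 2.59-fold lower in the KO library (2.31 to 2.90), from 454 and 912 estimated read pairs in the KO and WT libraries. Its log2 fold change was -1.22, and -0.98 with FPKM, where it was no longer called. Its FPKM, 2.21 in the KO library and 5.33 in the WT library, still differed by more than 2-fold before the pseudocount of 1 was added. In the KO library Notch3 was below Notch2, and in the WT library their intervals overlapped.

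The promoter window of Notch3, 250 bases before to 50 after the annotated start, is shown because Notch3 is the called gene that has one in the RefSeq table of GRCm38.p6. It lies at chr17:32166841-32167140 on the minus strand and is written 5′ to 3′, in lower case throughout because neither TGGGAA, the core letters that RBPJ binds, nor the reverse complement TTCCCA occurs in it.
Notch3: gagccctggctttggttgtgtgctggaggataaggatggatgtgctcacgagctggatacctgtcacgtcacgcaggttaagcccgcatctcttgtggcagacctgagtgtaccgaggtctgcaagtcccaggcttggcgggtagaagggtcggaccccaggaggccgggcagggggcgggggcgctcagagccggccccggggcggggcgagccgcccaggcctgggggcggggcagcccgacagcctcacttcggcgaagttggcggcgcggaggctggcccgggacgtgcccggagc
These letters occur on either strand in 25.6% of the 32851 windows of this length in the table. Of the 10 Notch genes 8 had a window, and the letters were found for 1 of them, Rbpj. The Notch3 transcript measured here starts at 32166852, and relative to that start the Notch3 window reaches further upstream and less far downstream. The absence of the letters says only that they are not in this window.

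The 3 receptor transcripts are long, and long transcripts were lower in the KO library as a rule. The median log2 fold change was 0.05 for tested genes with transcripts under 2000 bases, and -0.32 for the 671 with transcripts of 7000 bases or more, of which 94.9% were below zero. Notch1, with a transcript of 9489 bases, had a log2 fold change of -0.43, and 25.8% of these 671 genes had a lower one. Notch2, with 10506 bases, had -0.45, and 21.9% had a lower one. Both lay inside the central 95% of the long genes (-0.72 to 0.15). Notch3, with 7943 bases, lay outside it, and 0.447% of the long genes had a lower value. Of the long genes 1.34% were called lower.

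**Figure D2:**
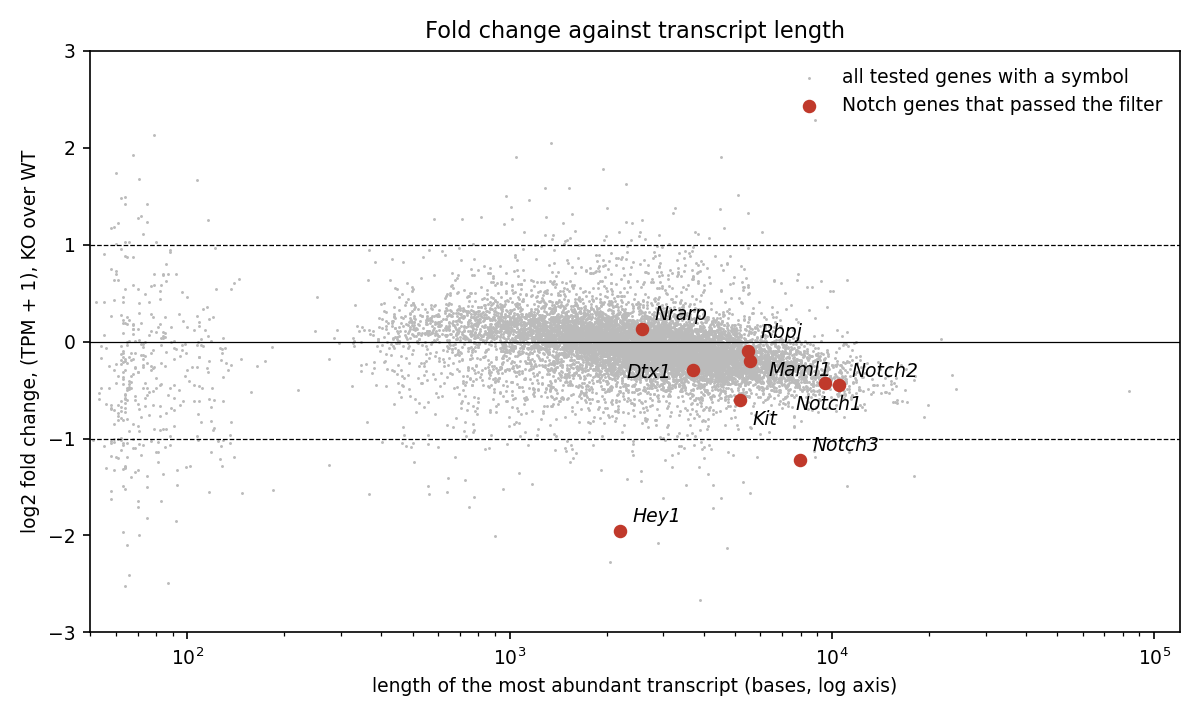
Log2 fold change of (TPM + 1), KO over WT, against the length of each gene's most abundant transcript in bases (log axis), for all tested genes with a symbol (grey) and the 9 Notch genes that passed the filter (red); dashed lines mark 2-fold, and 20 of 12011 points lie outside the axes. Notch1 and Notch2 lie within the cloud of long transcripts at -0.43 and -0.45, and Notch3 lies below it at -1.22; Hey1, with a shorter transcript of 2205 bases, lies at -1.95.

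Along the Notch1 transcript the difference was larger in the first exon than in the last. In the values that follow, exon depth is scaled to TPM-equivalents and exons are numbered 5′ to 3′. Exon 1 of Notch1 stood at 6.19 TPM-equivalents in the KO library and 23.0 in the WT library, a ratio of 0.269 (0.158 to 0.440). Exon 34, which encodes the end of the intracellular domain and holds the 3′ untranslated region, stood at 60.1 in the KO library and 67.5 in the WT library, a ratio of 0.891 (0.836 to 0.950). All 34 exons of Notch1 had a ratio under 1, and the interval lay under 1 for 21 of them. Part of exon 34, 1069 of 3075 bases, overlaps the annotated gene 0610009E02Rik on the other strand, so reads there are uncertain in origin.

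Notch3 was low in the KO library over its whole length. All 33 exons had a ratio under 1, and 31 of them were lower by 2-fold or more. The median exon ratio was 0.327, against 0.630 for Notch1 and 0.555 for Notch2. The terminal exon of Notch3 stood at 7.93 TPM-equivalents in the KO library and 16.4 in the WT library, a ratio of 0.483 (0.397 to 0.586). Notch2 had 32 of 34 exons under 1. Its exon 1 had a ratio of 0.938 with a wide interval (0.304 to 2.996), and its terminal exon stood at 13.4 in the KO library and 15.4 in the WT library. Exons 19 to 21 of Notch2 and exons 25 and 26 of Notch3 are also covered by other annotated genes, Gm42820 and Gm17276, which leaves the origin of reads in them uncertain.

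**Figure D3:**
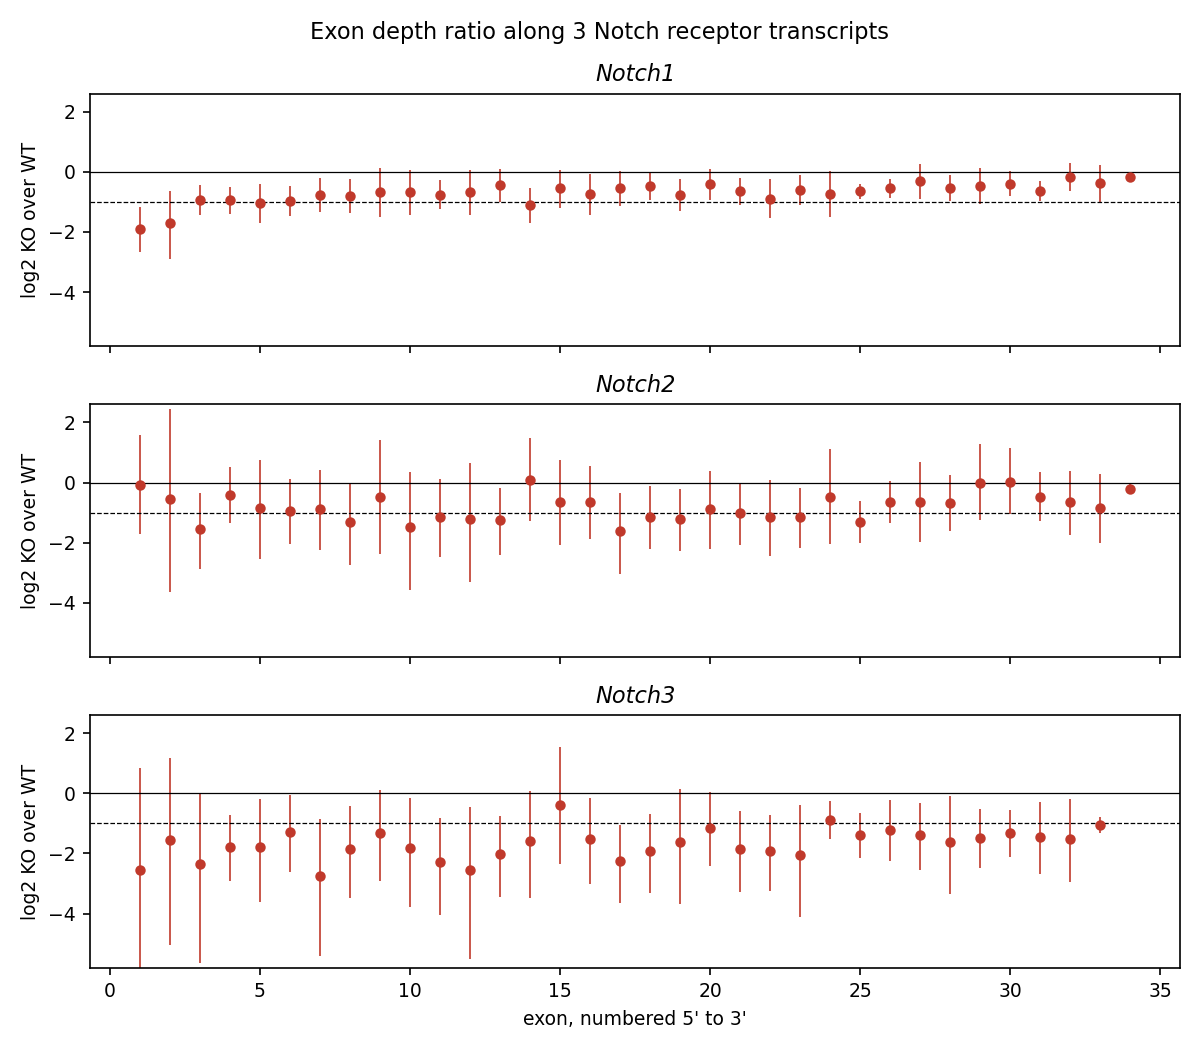
Log2 ratio of exon depth, KO over WT, for each exon of Notch1, Notch2 and Notch3, numbered 5′ to 3′, with 95% exact binomial intervals; the dashed line marks 2-fold lower, and the lower end of the interval of exon 1 of Notch3 runs off the axis. Notch1 climbs from exon 1 to exon 34 towards zero, and the Notch3 points stay below zero throughout.

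The slope along the transcript was shared by most genes of this kind. The exons before the terminal one were split at the middle of their summed length into a 5′ part and a 3′ part, for the 3039 tested genes with 1 annotated transcript and 10 or more exons. Over these genes the median log2 fold change of (TPM-equivalents + 1) was -0.28 in the 5′ part, -0.15 in the 3′ part and 0.02 in the terminal exon. The 5′ part was below the terminal exon in 86.4% of them. Of the 342 with 7000 bases or more, 96.5% had this order, with medians of -0.66 in the 5′ part and -0.08 in the terminal exon.

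Notch1 had -0.81 in the 5′ part, -0.54 in the 3′ part and -0.16 in the terminal exon, and Notch2 had -0.80, -0.71 and -0.19. A share of 11.2% of the 3039 genes had a larger drop than Notch1 from the terminal exon to the 5′ part, and 13.7% a larger one than Notch2. How much of the lower levels of Notch1 and Notch2 goes with this slope was not tested. Notch3 had -1.53, -1.22 and -0.96 in the same parts. On this scale its drop was no larger than those of the other receptors, with 17.0% of the genes beyond it. Its 5′ part stood at 2.88 TPM-equivalents in the KO library and 10.2 in the WT library. Adding 1 damps such low levels most, so the order of the 3 drops depends on the pseudocount. The terminal exon of Notch3 was itself low, with 0.691% of the genes lower.

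**Figure D4:**
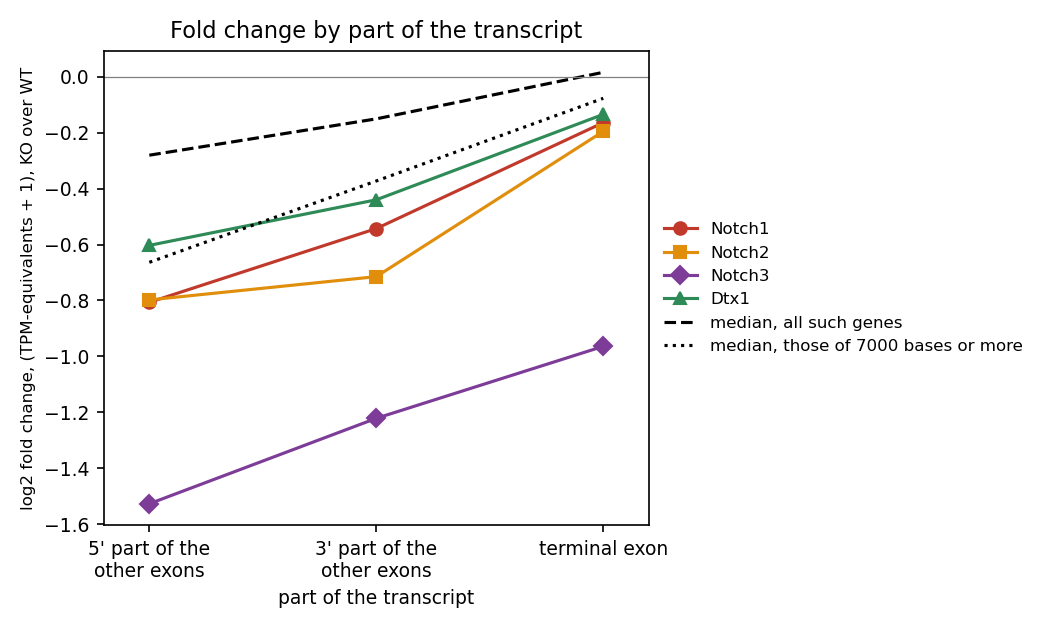
Log2 fold change of (TPM-equivalents + 1), KO over WT, in the 5′ part and 3′ part of the exons before the terminal one and in the terminal exon, for Notch1, Notch2, Notch3 and Dtx1 (coloured), with the medians over 3039 genes of 1 transcript and 10 or more exons (dashed) and over the 342 of them with 7000 bases or more (dotted). All lines climb towards the 3′ end, and Notch3 lies below the others in every part, at -0.96 in the terminal exon.

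Among the target genes, Hey1 was lower in the KO library by more than 2-fold, Dtx1 was lower by less, and the ratio intervals of Hes1 and Nrarp included 1. Hey1 (gene ID 15213, chromosome 3, 8663359 to 8667038, minus strand), which encodes a basic helix-loop-helix repressor, stood at 0.656 TPM (0.376 to 1.06) in the KO library and 5.39 TPM (4.40 to 6.54) in the WT library. It was 8.22-fold lower in the KO library (4.84 to 14.9), and its log2 fold change of (TPM + 1) was -1.95. This rests on 16.1 estimated read pairs in the KO library and 103 in the WT library. All 5 exons had a ratio under 0.351, and the terminal exon, which holds most of the read pairs, stood at 0.639 TPM-equivalents in the KO library and 5.86 in the WT library, a ratio of 0.109 (0.0544 to 0.200). Outside the terminal exon the log2 fold change was -1.48, on 3.99 and 16.4 read pairs in the KO and WT libraries.

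Among 1179 other genes whose WT level was within 1.5-fold of that of Hey1, the 3 nearest to it in log2 fold change were Scarna10 (-2.00), Mir6959 (-1.82) and Cpt1b (-2.08). Likeness over 2 libraries is a single ratio, and Scarna10 and Mir6959 held under 3 read pairs in each library. Cpt1b held 109 read pairs in the WT library but only 8.65 in the KO library, fewer than Hey1. It encodes the muscle form of the mitochondrial carnitine transferase.

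Hes1 (gene ID 15205, chromosome 16, 30065357 to 30067796, plus strand), the repressor best known as a direct Notch target in thymocytes, was under the filter in both libraries. It stood at 0.881 TPM (0.484 to 1.47) in the KO library and 0.597 TPM (0.249 to 1.20) in the WT library, from 14.2 and 7.50 read pairs. Its ratio of 1.47 has an interval of 0.570 to 4.17, so a difference was not detectable at this depth.

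Dtx1 (gene ID 14357, chromosome 5, 120680264 to 120711669, minus strand), which encodes the ubiquitin ligase Deltex1, stood at 7.81 TPM (6.98 to 8.71) in the KO library and 9.78 TPM (8.73 to 10.9) in the WT library, a ratio of 0.798 (0.681 to 0.935). Its terminal exon was at 15.3 TPM-equivalents in the KO library and 16.9 in the WT library, a log2 fold change of -0.13. Upstream of that exon it was -0.50, against a median of -0.14 over 11260 genes. Of the 3039 genes split into parts above, 16.3% had a lower 5′ part than Dtx1 and 25.8% a larger drop from the terminal exon. Nrarp (gene ID 67122, chromosome 2, 25180758 to 25183332, plus strand), a feedback inhibitor of the Notch complex, stood at 2.31 TPM (1.78 to 2.93) in the KO library and 2.01 TPM (1.47 to 2.70) in the WT library, with a ratio interval of 0.772 to 1.71 that includes 1. Its single exon overlaps the annotated antisense gene Gm38287 over 2044 of 2575 bases, so its level is uncertain.

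Kit (gene ID 16590, chromosome 5, 75574987 to 75656721, plus strand), the receptor for stem cell factor, stood at 1.57 TPM (1.27 to 1.93) in the KO library and 2.91 TPM (2.43 to 3.45) in the WT library. Its ratio was 0.541 (0.409 to 0.713), and its log2 fold change of -0.60 was short of the threshold. Kit was lower in the terminal exon, at -0.68, as well as upstream, at -0.52. Its 2 annotated transcripts differ inside the gene only at the end of exon 9, by 12 bases at chr5:75639147-75639158 (GRCm38, plus strand). The sequences are shown because these bases are what separates the 2 transcripts. They are taken from the GENCODE M21 transcripts, 5′ to 3′, with the 12 extra bases in capitals and 12 bases on each side.
Kit, NM_001122733: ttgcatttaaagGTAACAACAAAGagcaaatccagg
Kit, NM_021099: ttgcatttaaagagcaaatccagg
The longer form held all of the TPM of Kit in the KO library and 95.1% in the WT library. The shorter form was listed at 0 in the KO library, where a floor of 3 read pairs is 0.0521 TPM, and at 0.141 TPM in the WT library. Exon 9 of the longer form held 0.450 estimated read pairs in the KO library and 1.75 in the WT library, so the 2 forms could not be separated at this depth.

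The nuclear partners Rbpj and Maml1 were within 2-fold, with a larger difference upstream of the terminal exon than in it. Rbpj (gene ID 19664, chromosome 5, 53555779 to 53657445, plus strand), which encodes the DNA-binding protein of the Notch complex, stood at 37.8 TPM (36.3 to 39.4) in the KO library and 40.5 TPM (38.7 to 42.3) in the WT library. Its ratio was 0.933 (0.878 to 0.992), and with FPKM the difference vanished (log2 fold change -5.0e-05). The terminal exon, 4141 bases long, was at 38.5 TPM-equivalents in the KO library and 38.8 in the WT library. Upstream of it the level was 35.1 TPM-equivalents in the KO library and 45.3 in the WT library, a log2 fold change of -0.36. All 11 exons of the most abundant transcript, NM_001080927, had a ratio under 1. Those of NM_009035 ran from 0.707 in exon 1 to 1.96 (1.62 to 2.39) in the terminal exon. The authors' program divided reads of shared exons between the transcripts, so exon ratios of 1 transcript are not those of the gene. A share of 23.4% of the 50-base words of the Rbpj transcript also occurs in other genes, chiefly the pseudogene Rbpj-ps3, which leaves part of its level uncertain. Maml1 (gene ID 103806, chromosome 11, 50255635 to 50292336, minus strand), a Mastermind coactivator, stood at 48.0 TPM (46.3 to 49.7) in the KO library and 55.4 TPM (53.3 to 57.5) in the WT library, a ratio of 0.866 (0.822 to 0.913). Its terminal exon was at 62.3 and 66.8 TPM-equivalents in the KO and WT libraries, and its log2 fold change upstream was -0.47.

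The split of Rbpj between its annotated transcripts differed by more than 10 percentage points for 1 transcript. NM_001080927 held 75.8% of the TPM of Rbpj in the KO library and 88.3% in the WT library, a difference of -12.5 points, and NM_009035 held 20.8% in the KO library and 11.7% in the WT library. A difference of this size is common, since 23.5% of the 11450 transcripts in genes with 2 or more transcripts and at least 1 TPM in both libraries differed by 10 points or more. The first exons, which set NM_001080927 and NM_009035 apart, held few reads. That of NM_001080927 held 3.04 read pairs in the KO library and 4.68 in the WT library, and that of NM_009035 held 2.12 in the KO library and 2.33 in the WT library. The shares therefore rest on how the authors' program divided reads of shared exons.

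The start windows of these 2 Rbpj transcripts are shown because the 2 differ in their starts and the windows hold the only matches to the RBPJ letters. The window of NM_009035 is also that of NM_001277116, which has the same start and was listed at 0 in both libraries. The 2 windows overlap, since the starts are neighbours on the plus strand, and come from the RefSeq table of GRCm38.p6. Matches to TGGGAA or TTCCCA are in capitals.
Rbpj, NM_009035, chr5:53590096-53590395: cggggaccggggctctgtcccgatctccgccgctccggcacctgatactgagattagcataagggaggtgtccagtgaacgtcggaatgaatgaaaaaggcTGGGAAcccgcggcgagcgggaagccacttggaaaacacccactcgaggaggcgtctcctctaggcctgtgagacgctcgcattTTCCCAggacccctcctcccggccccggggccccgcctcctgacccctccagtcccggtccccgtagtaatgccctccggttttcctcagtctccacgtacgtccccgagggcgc
Rbpj, NM_001080927, chr5:53590236-53590535: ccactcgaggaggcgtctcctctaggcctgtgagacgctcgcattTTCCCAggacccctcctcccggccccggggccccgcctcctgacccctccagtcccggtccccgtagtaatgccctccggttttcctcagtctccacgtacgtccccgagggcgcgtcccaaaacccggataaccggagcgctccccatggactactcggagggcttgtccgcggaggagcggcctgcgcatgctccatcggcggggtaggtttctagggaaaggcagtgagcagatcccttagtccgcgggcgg
The matches begin at positions -149 and -65 relative to the start in the first window. The match in the second window, at -205, is the same TTCCCA. A match is a description of letters and not a binding site. The longer form GTGGGAA and its reverse complement occurred in none of the windows of the Notch genes, and in 6.38% of all windows.

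Upstream of the terminal exon the same 2 genes were called. Of the 8 Notch genes that passed the filter and have more than 1 exon, Hey1 and Notch3 (log2 fold change -1.35) were lower by 2-fold or more and none was higher. Of the 11260 genes with such a part 1.79% were called in either direction, 1.16% lower and 0.622% higher. At 1.5-fold 4 of the 8 were lower, with Notch1 (-0.65) and Notch2 (-0.75) added, and none was higher. Of all such genes 10.6% passed in either direction, 8.02% lower and 2.54% higher. These shares are over transcripts of all lengths. The 342 genes of 7000 bases or more described above had medians of -0.66 in the 5′ part and -0.37 in the 3′ part. All 8 were below zero there, with a median of -0.59 against -0.14 over all such genes, of which 68.0% were below zero.

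None of the other genes of the Notch pathway was called. Of 74 such genes in 7 lists 60 passed the filter, and none was higher or lower by 2-fold, beside the 2.03% of all tested genes called in either direction. Their median log2 fold change was -0.16 and 43 of them (71.7%) were below zero, beside a median of -0.07 and 61.5% over all tested genes. At 1.5-fold, 6 of the 60 were lower and none was higher, beside the 4.43% and 2.59% of all tested genes. Those 6 were Aak1, Mib1, Crebbp, Igf1r, Spen and Tle4. The shares of all tested genes are over transcripts of all lengths. Aak1, Crebbp, Igf1r and Spen have transcripts of 7000 bases or more, a class with a median of -0.32. In that class 1.79% of genes were lower than Aak1, 3.58% than Crebbp, 3.73% than Igf1r and 4.32% than Spen. Mib1 and Tle4 have shorter transcripts, and Tle4 was low in its terminal exon (-2.55) more than upstream (-0.14).

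Ligand genes had low levels in these cells. Jag2 stood at 3.73 TPM (3.19 to 4.34) in the KO library and 4.67 TPM (3.98 to 5.44) in the WT library. Dll1, Dll3, Dll4, Jag1 and the receptor gene Notch4 were under 1 TPM in both libraries, with Dll4, the main thymic ligand, at 0.156 TPM in the KO library and 0.185 TPM in the WT library.

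The enzymes that cut and glycosylate the receptors were near level, with medians of -0.13 over 8 genes and -0.07 over 6 genes. Furin, the protease that matures the receptor, was the lowest, at 28.4 TPM in the KO library and 36.6 TPM in the WT library, followed by the protease gene Adam10 at 68.5 and 77.5 TPM. Psenen, a subunit of gamma-secretase, was the highest, at 254 TPM in the KO library and 221 TPM in the WT library, and Aph1a, another subunit, stood at 47.3 and 45.9 TPM. The lowest of the glycosyltransferase genes were Lfng, a Fringe gene, at 19.4 TPM in the KO library and 23.4 TPM in the WT library, and Pofut1, which adds O-fucose, at 19.4 and 22.3 TPM. The highest were Poglut1, which adds O-glucose, at 25.9 TPM in the KO library and 23.7 TPM in the WT library, and Rfng at 45.2 and 46.9 TPM.

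The endocytosis and ubiquitin list had 9 of 10 genes below zero, with a median of -0.20. Aak1, which encodes an adaptor-associated kinase of endocytosis and has a transcript of 19345 bases, stood at 5.57 TPM (5.26 to 5.90) in the KO library and 10.3 TPM (9.82 to 10.8) in the WT library. Mib1, a ligase for Notch ligands, stood at 13.7 TPM (12.6 to 14.9) in the KO library and 23.2 TPM (21.6 to 24.9) in the WT library, and its log2 fold change was -0.74 upstream of the terminal exon and -0.41 in it. The highest were Numbl (2.82 TPM in the KO library and 2.77 TPM in the WT library) and Dtx3l (50.3 and 51.0 TPM).

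Coactivators had a median of -0.19 over 7 genes and corepressors of -0.33 over 12 genes. Crebbp, the acetyltransferase CBP, stood at 41.9 TPM (40.5 to 43.3) in the KO library and 67.4 TPM (65.4 to 69.4) in the WT library, and had log2 fold changes of -0.78 upstream and -0.53 in the terminal exon. Maml3, a Mastermind gene, stood at 1.48 TPM in the KO library and 2.51 TPM in the WT library. Spen, the corepressor that binds RBPJ, stood at 26.3 TPM (25.5 to 27.2) in the KO library and 41.9 TPM (40.7 to 43.2) in the WT library, with a transcript of 12230 bases and a log2 fold change of 0.05 in its terminal exon. Tle4, a Groucho corepressor gene, stood at 22.1 TPM in the KO library and 34.6 TPM in the WT library, but its log2 fold change upstream was -0.14, against -2.55 in the terminal exon. The highest in these lists were Snw1 (159 TPM in the KO library and 156 TPM in the WT library), Kat2b (37.8 and 40.8 TPM), Hdac2 (196 and 182 TPM) and Hdac1 (309 and 294 TPM).

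Other genes known as Notch targets in T cell precursors did not share the low values of Hey1 and Notch3. Their median was 0.0019 over 16 genes, 8 above and 8 below zero. Igf1r, the receptor for insulin-like growth factor, was the lowest, at 5.94 TPM (5.53 to 6.37) in the KO library and 10.1 TPM (9.45 to 10.7) in the WT library, with a transcript of 11978 bases, followed by the transcription factor gene Tcf7 at 1276 and 1567 TPM. Ccnd3, which encodes cyclin D3, was the highest, at 790 TPM in the KO library and 647 TPM in the WT library, followed by Tspan2 at 11.1 and 9.21 TPM. The Hes family gene Hes5 stood at 7.11 TPM (5.79 to 8.64) in the KO library and 6.17 TPM (4.79 to 7.82) in the WT library. Hey2 was listed at 0 in both libraries, and Heyl stood at 0.0891 TPM in the KO library and 0.127 TPM in the WT library. Ptcra, the pre-T cell receptor alpha chain, stood at 16.0 TPM (14.0 to 18.2) in the KO library and 13.6 TPM (11.5 to 16.0) in the WT library.

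**Figure D5:**
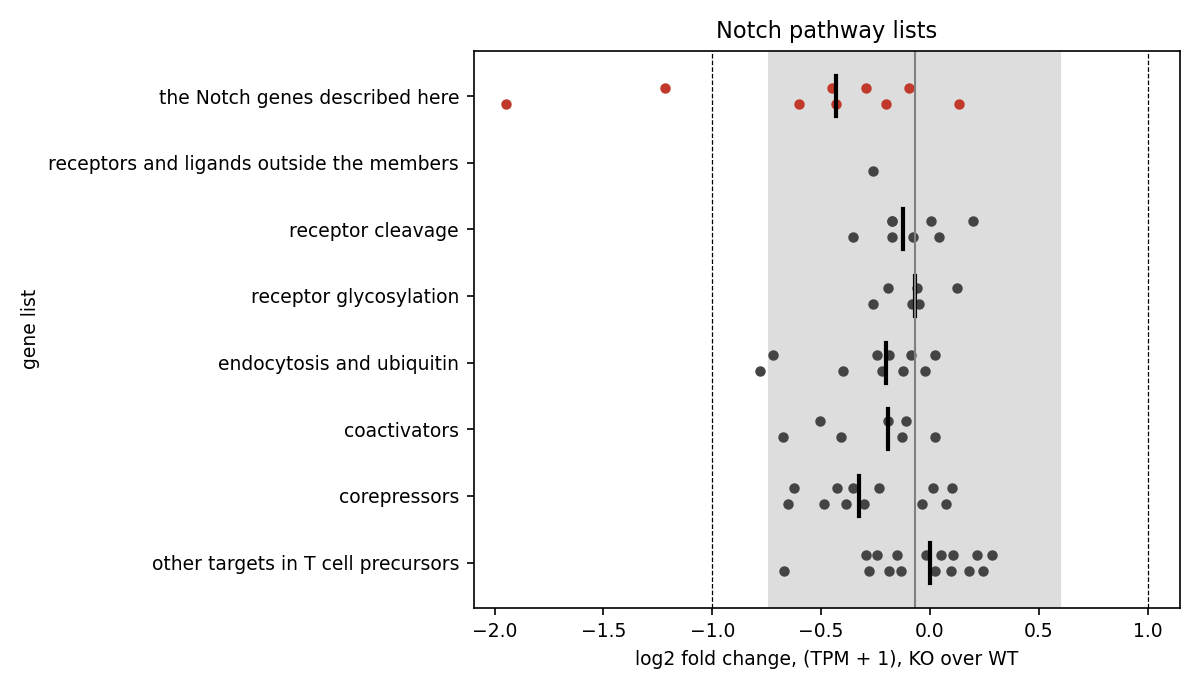
Log2 fold change of (TPM + 1), KO over WT, of each gene that passed the filter, for the Notch genes described here (red) and 7 lists of other pathway genes (dark grey), with the list's median as a bar; the grey band is the central 95% of all 12029 tested genes, the grey line their median (-0.07), and dashed lines mark 2-fold. Hey1 and Notch3 lie outside the dashed lines, and no gene of the other lists does.

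Fewer cells of a type and less RNA per cell cannot be told apart in these bulk samples, so markers of other cells that express these genes were summed. Markers of double-negative precursors, in which Notch1, Notch3, Hes1 and Kit are known to be active, summed to 27.4 TPM in the KO library and 31.2 TPM in the WT library over 9 genes, of which 6 were lower and none was called. Markers of endothelium, where Hey1 is known to be expressed, were at or near 0: Tek, Emcn and Sox17 were listed at 0 in both libraries, Cdh5 stood at 0.360 TPM in the KO library and 0.174 TPM in the WT library, and only Pecam1, which thymocytes also express, was above 1 TPM. Markers of mesenchyme, where Notch3 is known to be expressed, summed to 1.08 TPM in the KO library and 1.26 TPM in the WT library over 5 genes, with Pdgfra, Col3a1 and Dcn at 0.

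Markers of myeloid and dendritic cells summed to 265 TPM in the KO library and 359 TPM in the WT library, with 6 of 8 lower, and those of B cells to 62.1 TPM in the KO library and 53.6 TPM in the WT library, with 4 of 5 higher. Markers of mast cells, which express Kit, summed to 2.71 TPM in the KO library and 2.24 TPM in the WT library, with Mcpt4 and Tpsb2 at 0. Those of thymic epithelium summed to 16.0 and 17.1 TPM in the KO and WT libraries, with Foxn1, Krt5 and Krt8 at 0 in both. Natural killer cell markers summed to 16.4 and 11.2 TPM, gamma-delta T cell markers to 6.46 and 5.83 TPM over 2 of 3 names found, and erythroid markers to 2.47 and 0.811 TPM, in the KO and WT libraries. The part of these cells in the values of the Notch genes was not tested.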

How the data were processed

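HISAT2 and the build mm10 (GRCm38) are named in the submitters' processing notes. StringTie 1.3.3b was run by the authors on each library, limited to annotated RefSeq transcripts, per the file headers. The deposited gene tables give TPM and FPKM, and coverage, the mean read depth per base, which is not scaled to library size. The deposited transcript tables give coverage per exon. No source used here gives the strand setting. Values of 1 gene ID were summed over loci, and 24462 of 24532 IDs matched a symbol in the RefSeq table of GRCm38.p6. In transcripts with few reads, the covered bases lay near multiples of 202, which is 2 mates of 101 bases, in 21.1% of cases in the KO library and 20.3% in the WT library, against 2.48% by chance, so read pairs were estimated as covered bases divided by 202. Exon coverage was scaled to TPM-equivalents with each library's ratio of TPM to coverage. Upstream values take all exonic bases outside the terminal exon of the most abundant transcript.

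The alternatives were the pseudocount, the filter, FPKM, a median rescaling, a fold threshold of 1.5, exon depth without the terminal or first exon, and shares from covered bases. Named genes are the members, called pathway genes, the 2 highest and 2 lowest of each pathway list, the 3 genes nearest to Hey1, transcripts whose share differs by 10 points, and Nsrp1. Other genes, the length classes and the 5′ and 3′ parts were chosen after values were seen. The members and lists were chosen with earlier results of these data known. The computing used scipy 1.17.1, pandas 2.3.3 and numpy 2.4.6 under Python 3.11.15.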

Additional observations from a re-analysis of the deposited data

How the results depend on the processing

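The call of Hey1 and Notch3 as lower was made under the other pseudocounts, filters, the rescaling and without the terminal exon. With FPKM 1 Notch gene was called, Hey1. The FPKM were smaller numbers with the same pseudocount of 1, so this setting damps the changes of low genes more. It also shifts the scale between the libraries, since the median over all tested genes was 0.02 with FPKM and -0.07 with TPM. With the median rescaling that median was -0.01, with 150 genes lower and 90 higher. Over all genes, 244 were called by the TPM rule, 444 with a pseudocount of 0.1 TPM and 844 at 1.5-fold, while FPKM gave 50 lower and 51 higher. At 1.5-fold 6 pathway genes were called, against 0 at 2-fold. No transcript share (0) differed by 25 points. Of 66 other values of single members, 55 moved by less than their counting interval and 11 by more. The 55 include the values under other filters, which cannot change a gene's own fold change, so this count overstates the stability. The fold change of Hey1 was -2.86 with a pseudocount of 0.1 TPM, which shows how far 1 TPM understates it. The cause of these changes was not tested beyond each setting's construction. No paired analysis was possible because there is 1 library per genotype, and for the same reason no library could be left out. At 16.1 and 14.2 read pairs in the KO library, depth limits Hey1 and Hes1.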
